A study of Mus musculus with 12 samples.

Results

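The proteasome is the barrel-shaped protease that breaks down proteins marked with ubiquitin. Its 20S core is built of outer rings of alpha subunits and inner rings of beta subunits that carry the cutting sites. The 19S cap, made of a base with an ATPase ring and a lid, binds, unfolds and feeds in the substrate. Cells exposed to interferon gamma replace the constitutive cutting subunits by the inducible subunits Psmb8, Psmb9 and Psmb10, which gives the immunoproteasome, and the PA28 activator (Psme1 and Psme2) can take the place of the cap. In macrophages and other antigen-presenting cells these forms are known for making peptides for display on MHC class I. Proteasome genes were taken as the protein-coding genes of the deposited table whose symbol starts with Psma, Psmb, Psmc, Psmd, Psme, Psmf or Psmg. Of 11669 genes in the table, 39 met this rule. Psmc3ip, which encodes a cofactor of DNA recombination and no proteasome part, met it by its name, had 0 to 36 reads per library and was not tested. The other 38 encode subunits, activators, a regulator and assembly chaperones, and all 38 reached 1 FPKM (fragments per kilobase of transcript, scaled to library size) in at least 3 libraries, the condition for a test. Psma8 reached it only through libraries with D, and Psme4 and Psmg3 only through libraries without D. Their difference between these libraries let them in, so their values are given without a test of their own, and counts of calls are given with and without them. The mouse annotation GENCODE M21 names 50 genes under the rule, and the other 11 (Psma5, Psmb9, Psmb11, Psmc1, Psmc4, Psmc5, Psmd1, Psmd3, Psme3, Psmg2 and Psmg4) are not analysed here.

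RNA was sequenced from TAMC, the cell line name that the labels give to immune cells from mouse marrow, after 24 h of exposure. Each of 4 groups held 3 libraries: NP-D@MP, NP-D@M, NP@M and PBS. The series concerns a nanodrug carrying a cancer cell membrane and directed at cyclin-dependent kinases. The labels do not spell out NP, D, M or P, so NP-D@MP and NP-D@M are called here the libraries with D, and NP@M and PBS those without. They also do not say how the cells were obtained or whether libraries of 1 group came from separate cultures. The extraction protocol speaks of retinas. Of 6 retina markers 0 were in the table, whereas all 10 markers of monocytes and macrophages were tested.

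The reads recovered from the table came to 14444950 to 17338264 per library. The authors' scaling assigned libraries with D a size 0.468 to 0.553 times their reads and libraries without D one 2.19 to 2.36 times theirs. Scaling to read totals instead therefore lowers fold changes of D against no D, by about 2 on the log2(FPKM + 1) scale for abundant genes and by less for genes of few FPKM, and the median of all 8615 tested genes in NP-D@M against NP@M moved to -1.47, against 0.16 as deposited. Directions below are given under both scalings for this reason. FPKM of single libraries, and their order, are at the deposited scaling unless stated. The share of all tested genes with all libraries with D on 1 side of all without D was not counted. Between NP-D@M and NP@M alone, 46.3% of all tested genes were higher and 46.7% lower without overlap at the deposited scaling. The 10 most abundant genes took 33.5% to 35.4% of reads with D and 10.1% to 12.4% without. Among the libraries without D, NP@M replicate 2 and PBS replicate 3 were unlike the rest of their groups: 9.11% and 9.31% of genes were at 0 there, and 2.65% to 2.96% in the remaining 4. Calls of named genes that changed, or values that moved by over 1.5 times, without both libraries are given with and without them. Summed markers of monocytes and macrophages were 34746 to 37174 FPKM in NP-D@MP, 29257 to 39722 in NP-D@M, 2435 to 2957 in NP@M and 2372 to 3739.8 in PBS. After scaling to read totals these sums were 17314 to 17522 in NP-D@MP, 15426 to 19167 in NP-D@M, 5635 to 6948 in NP@M and 5589 to 8187 in PBS, and 0 of the 10 markers were at 0 in every library. Dendritic cell markers (5 of 7 in the table) summed to 482 to 604 FPKM in NP-D@MP, 552 to 714 in NP-D@M, 86.4 to 111 in NP@M and 78.0 to 97.3 in PBS, and at read totals to 235 to 304 in NP-D@MP, 305 to 345 in NP-D@M, 203 to 256 in NP@M and 182 to 213 in PBS. Neutrophil markers (8 of 10) summed to 1852 to 2973 FPKM in NP-D@MP, 987 to 1667 in NP-D@M, 430.4 to 1008 in NP@M and 915 to 1258 in PBS, and at read totals to 867 to 1449 in NP-D@MP, 522 to 879 in NP-D@M, 996 to 2368 in NP@M and 2004 to 2943 in PBS. Epithelial markers (2 of 5) summed to 29.9 to 32.9 FPKM in NP-D@MP, 18.8 to 33.9 in NP-D@M, 7.06 to 9.08 in NP@M and 7.13 to 9.203 in PBS, and at read totals to 14.6 to 15.9 in NP-D@MP, 10.4 to 17.9 in NP-D@M, 16.3 to 21.3 in NP@M and 16.8 to 20.1 in PBS. T and NK cell markers (2 of 8) reached at most 3.76 FPKM in any library and the B cell marker (1 of 5) at most 0.144. The part that this difference in markers, the 10 abundant genes or the zeros of the libraries apart has in the results below was not tested. In such bulk libraries fewer cells of a type and less RNA per cell cannot be told apart.

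NP-D@M against NP@M asks what adding D to the particle changed. At the deposited scaling 26 of 38 proteasome genes were called higher in NP-D@M (limma, adjusted p under 0.05) and 9 lower, and among all tested genes 45.2% were called higher and 46% lower. The median log2 fold change of the 38 was 1.04. At read totals 0 were called higher and 24 lower, with 9.12% of all tested genes called higher and 61.7% lower, and the median of the 38 was -1.03. All 24 proteasome genes with an unadjusted p under 0.05 at read totals were lower, so 0 were higher at that limit too. Without Psma8, Psme4 and Psmg3, 25 of 35 were called higher and 7 lower at the deposited scaling, and 0 and 22 at read totals. With library medians set equal the counts were 28 higher and 5 lower (all tested genes: 49% and 39.6%), and under quantile normalization 6 higher and 11 lower (34.7% and 33.9%). NP-D@M and NP@M did not overlap in 28 genes that were higher and 10 that were lower in NP-D@M at the deposited scaling, where 46.3% and 46.7% of all tested genes were so. At read totals 0 genes were higher and 24 lower without overlap, and 12.9% and 63.9% of all tested genes. Leaving out Psma8, Psme4 and Psmg3, 27 genes were higher and 8 lower without overlap at the deposited scaling, and 0 and 22 at read totals. The counts under equal medians and quantile normalization include these genes.

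Some genes kept their sign under every scaling. Of the 35 genes without Psma8, Psme4 and Psmg3, 8 had a fold change below 0 under all 4 scalings in NP-D@M against NP@M: the ATPase genes Psmc2 and Psmc6, the lid genes Psmd6, Psmd7, Psmd11 and Psmd12, and the chaperones Psmd5 and Psmg1. Of these, Psmc6, Psmd7 and Psmd12 were called lower under every one of the 4. Above 0 under all 4 scalings were the lid gene Psmd8 and the PA28 genes Psme1, Psme2 and Psme2b, and 0 genes were called higher under all 4. The other 23 genes changed sign with the scaling. Of all tested genes, 46% were called lower as deposited, 61.7% at read totals, 39.6% under equal medians and 33.9% under quantile normalization. The share of all tested genes that kept a sign or a call under all 4 was not counted, so these counts have no background beside them. At the deposited scaling the log2 fold changes of the 38 ranged from -2.20 for Psmd7 of the lid to 2.98 for Psme2 of PA28, and within the lid from -2.20 for Psmd7 to 2.57 for Psmd8.

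**Figure D1:**
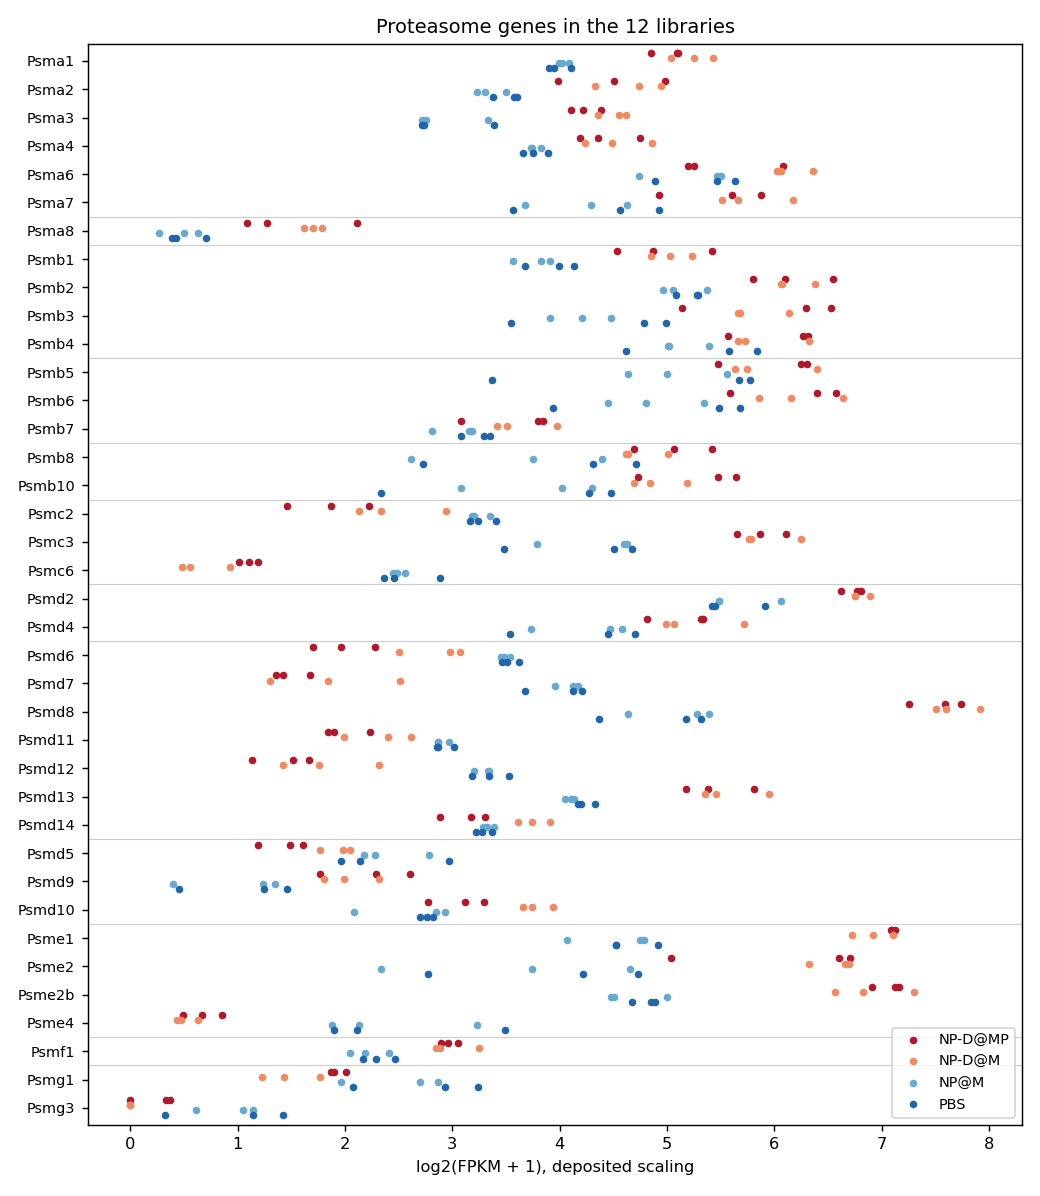
Level of each of the 38 tested proteasome genes in every library, as log2(FPKM + 1) at the deposited scaling (x axis), 1 point per library and 1 row per gene, with grey lines between groups of subunits. Libraries with D (reds) lie right of those without D (blues) for most ring genes and for Psmd8 and the PA28 genes, and left of them for Psmd6, Psmd7, Psmd11, Psmd12, Psmc2, Psmc6 and Psme4; libraries scaled to read totals would shift red points left and blue points right, except points at 0.

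**Figure D2:**
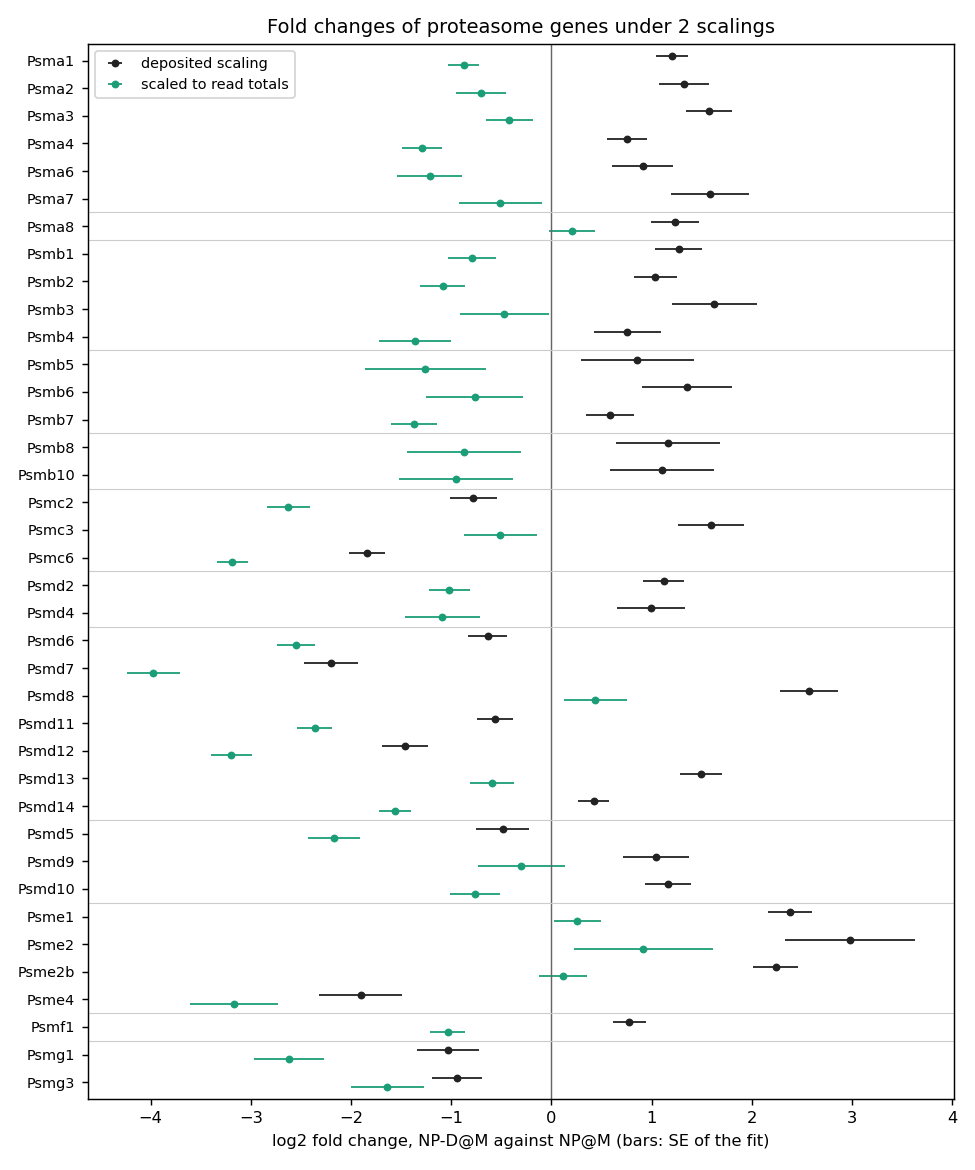
Log2 fold change of each gene in NP-D@M against NP@M, with bars of 1 SE of the limma fit, at the deposited scaling (black) and scaled to read totals (green). Every green point lies left of its black point: 28 black points and 5 green points lie above 0.

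The alpha ring forms the gate of the core. All 6 alpha genes tested apart from the testis form (Psma1, Psma2, Psma3, Psma4, Psma6 and Psma7) were called higher in NP-D@M than in NP@M at the deposited scaling, with log2 fold changes of 0.76 to 1.58, while at read totals all 6 were below 0 (-1.29 to -0.42) and 4 were called lower. Psma3 had the highest ratio of group means among these with 21.8 ± 2.08 FPKM in NP-D@M and 6.80 ± 1.97 FPKM in NP@M (SD, n = 3 each). The Psma6 call was lost without NP-D@M replicate 1 (adjusted p = 0.0502) and without NP@M replicate 2 (adjusted p = 0.059). Psma8, the alpha subunit known from testis, was low in every library, at most 3.33 FPKM, and averaged 2.26 ± 0.198 FPKM in NP-D@M and 0.392 ± 0.176 FPKM in NP@M at the deposited scaling. The structural beta genes Psmb1, Psmb2, Psmb3 and Psmb4 behaved likewise: all 4 were called higher at the deposited scaling (0.76 to 1.63), and at read totals all 4 were below 0 (-1.36 to -0.47) with 3 called lower. For Psmb4 the call ended in 8 of the 12 fits that each left out 1 library, with an adjusted p of 0.17 without NP-D@M replicate 1, 0.051 without NP-D@M replicate 2, 0.0616 without NP-D@M replicate 3, 0.104 without NP@M replicate 2 and 0.113 without NP@M replicate 3. It also ended without NP-D@MP replicates 2 or 3 or PBS replicate 2, which are in neither group, at adjusted p values of 0.0552, 0.0563 and 0.0556.

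The constitutive cutting subunits are Psmb5 (chymotrypsin-like), Psmb6 (caspase-like) and Psmb7 (trypsin-like). Psmb5 (ENSMUSG00000022193, chr14:54614119-54618022, GRCm38) had 43.6, 74.9 and 78.1 FPKM in NP-D@MP, 83.5, 48.7 and 52.7 in NP-D@M, 46.3, 23.9 and 30.9 in NP@M, and 53.8, 49.9 and 9.32 in PBS. PBS replicate 3 was by far the lowest library, and the groups with and without D overlapped. Its log2 fold change in NP-D@M against NP@M was 0.86 at the deposited scaling (SE 0.56, adjusted p = 0.159), -1.26 at read totals (SE 0.60, adjusted p = 0.0848), and -0.87 under quantile normalization, past the threshold under none of these. Under equal medians it was 1.38 (adjusted p = 0.03), past the threshold. Without PBS replicate 3 the adjusted p at the deposited scaling was 0.019.

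Psmb6 (ENSMUSG00000018286, chr11:70525367-70527858) had 47.2, 94.5 and 83.1 FPKM in NP-D@MP, 98.7, 56.9 and 70.4 in NP-D@M, 39.6, 20.8 and 26.98 in NP@M, and 50.4, 43.7 and 14.4 in PBS. At the deposited scaling every NP-D@M library was above every NP@M library, and PBS replicate 3 was again the lowest. Scaled to read totals, NP-D@M and NP@M overlapped. The log2 fold change of Psmb6 was 1.35 at the deposited scaling (SE 0.45, adjusted p = 0.0146), -0.77 at read totals (SE 0.49, adjusted p = 0.182), and -0.37 under quantile normalization, and the call was lost without NP-D@M replicate 1 (adjusted p = 0.0573) or NP@M replicate 2 (adjusted p = 0.0515). Psmb7 (ENSMUSG00000026750, chr2:38588036-38644087), which overlaps Nek6, had 7.49, 12.9 and 13.3 FPKM in NP-D@MP, 14.8, 9.65 and 10.4 in NP-D@M, 7.90, 8.09 and 6.04 in NP@M, and 9.18, 7.44 and 8.82 in PBS. At the deposited scaling NP-D@M lay above NP@M in all libraries, while NP-D@MP replicate 1 fell among the libraries without D. Scaled to read totals, NP-D@M lay below NP@M in all libraries. Its log2 fold change was 0.58 at the deposited scaling (SE 0.24, adjusted p = 0.0343) and -1.37 at read totals (SE 0.23, adjusted p = 0.000221), and the call at the deposited scaling ended without NP-D@M replicate 1 (adjusted p = 0.135) or NP@M replicate 3 (adjusted p = 0.12).

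The inducible subunits Psmb8, which takes the place of Psmb5, and Psmb10, which takes that of Psmb7, were measured, and Psmb9 is not analysed here. Psmb8 (ENSMUSG00000024338, chr17:34197721-34201454) had 24.8, 32.4 and 41.7 FPKM in NP-D@MP, 31.2, 23.9 and 23.6 in NP-D@M, 19.98, 5.13 and 12.5 in NP@M, and 25.2, 18.8 and 5.62 in PBS. NP@M replicate 2 and PBS replicate 3 were the lowest libraries, and PBS replicate 1 was within the range of the libraries with D. The log2 fold change of Psmb8 in NP-D@M against NP@M was 1.17 at the deposited scaling (SE 0.52, adjusted p = 0.05) and -0.87 at read totals (SE 0.57, adjusted p = 0.195). This call stood at the limit and was lost in 9 of the 12 fits that each left out 1 library: without NP-D@MP replicate 1, 2 or 3 (adjusted p = 0.0585, 0.0644 and 0.0583), NP-D@M replicate 1, 2 or 3 (adjusted p = 0.125, 0.0803 and 0.0789), NP@M replicate 2 or 3 (adjusted p = 0.207 and 0.0718), or PBS replicate 2 (adjusted p = 0.0565). Without NP@M replicate 2 its log2 fold change was 0.68, and without both libraries that stood apart it was 0.68 (adjusted p = 0.0291), past the threshold.

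Psmb10 (ENSMUSG00000031897, chr8:105935735-105938444) had 25.6, 43.4 and 48.9 FPKM in NP-D@MP, 35.4, 27.7 and 24.8 in NP-D@M, 18.7, 7.47 and 15.2 in NP@M, and 21.3, 18.4 and 4.04 in PBS. At the deposited scaling all 6 libraries with D were above all 6 without D, and NP@M replicate 2 and PBS replicate 3 were once more the lowest. Scaled to read totals, libraries with and without D overlapped. Its log2 fold change was 1.11 at the deposited scaling (SE 0.52, adjusted p = 0.0619) and -0.95 at read totals (SE 0.57, adjusted p = 0.16), not past the threshold under either. Under equal medians it was 1.61 (adjusted p = 0.00949), past the threshold. At the deposited scaling the adjusted p was 0.0478 when NP@M replicate 1 was left out, 0.0487 when PBS replicate 1 was, and 0.00748 when PBS replicate 3 was. Without both libraries that stood apart its log2 fold change was 0.75 (adjusted p = 0.0206), past the threshold. Psmb8 and Psmb10 each overlap an antisense gene (Gm20496 and Gm16156), and whether the kit kept strand is not given in the sources used here, so reads of the partners cannot be told apart.

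Ratios between an inducible subunit and the constitutive subunit it replaces are taken within a library and do not depend on the scaling. The log2 ratio of Psmb8 to Psmb5 was -0.82, -1.21 and -0.91 in NP-D@MP, -1.42, -1.02 and -1.16 in NP-D@M, -1.21, -2.22 and -1.31 in NP@M, and -1.10, -1.41 and -0.73 in PBS. The ratio was below 0 in every library, that is, Psmb5 was the more abundant transcript per length, and NP@M replicate 2 was the lowest. Over the libraries with D it averaged -1.09 ± 0.22 and over those without -1.33 ± 0.50 (SD, n = 6 each), a difference of 0.24 (2-sided exact permutation test, p = 0.344, Benjamini-Hochberg p over 2 ratios = 0.344).

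The log2 ratio of Psmb10 to Psmb7 was 1.77, 1.75 and 1.87 in NP-D@MP, 1.26, 1.52 and 1.25 in NP-D@M, 1.24, -0.11 and 1.34 in NP@M, and 1.21, 1.30 and -1.13 in PBS. It was above 0 except in NP@M replicate 2 and PBS replicate 3, the 2 libraries that stood apart. The mean was 1.57 ± 0.27 with D and 0.64 ± 1.03 without (SD, n = 6 each), a difference of 0.93 (2-sided exact permutation test, p = 0.0216, Benjamini-Hochberg p = 0.0433, smallest possible p = 0.00216). Without PBS replicate 3 the difference was 0.58 (unadjusted exact permutation p = 0.0433). Without both libraries that stood apart it was 0.30 (unadjusted exact permutation p = 0.0952), past no threshold. The p-values of fits that left out libraries were not adjusted over the 2 ratios. Without PBS replicate 3 the Psmb8 to Psmb5 ratio had an exact permutation p of 0.0996, and such an adjustment would not leave 0.0433 under 0.05. In the remaining libraries without D the ratio was 1.21 to 1.34, the NP-D@M libraries had 1.25 to 1.52, and the NP-D@MP libraries had 1.75 to 1.87.

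**Figure D3:**
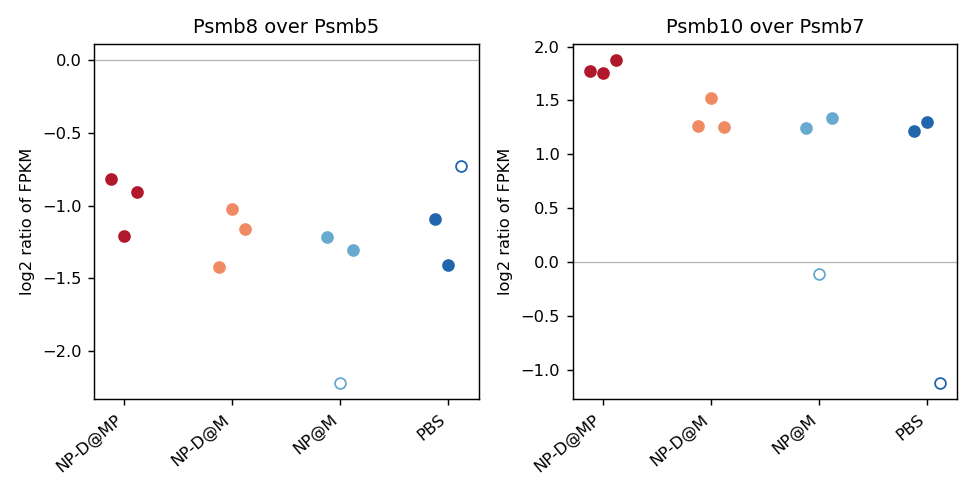
Log2 ratio of FPKM within each library (y axis) for the inducible over the constitutive subunit, Psmb8 over Psmb5 on the left and Psmb10 over Psmb7 on the right, 1 point per library in each of the 4 groups. Open circles mark NP@M replicate 2 and PBS replicate 3, the 2 libraries that stood apart, which give the 2 values of Psmb10 over Psmb7 below 0.

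Genes of the interferon gamma axis, which drives the immunoproteasome, were counted as a list together with the peptide loading genes it induces. Of 14 tested, 5 were called higher and 8 lower in NP-D@M than in NP@M at the deposited scaling (median -1.19), beside 45.2% higher and 46% lower among all tested genes and a median of 0.16 over these. At read totals 1 was higher and 11 lower (median -2.84), beside 9.12% higher and 61.7% lower among all tested genes and a median of -1.47. Irf1, Irf2, Irf8 and Irf9 reached the filter of 1 FPKM only through libraries without D, so these counts include 4 genes that their own difference let in. Ifngr1, the ligand-binding chain of the interferon gamma receptor, averaged 2.21 ± 0.831 FPKM in NP-D@M and 32.7 ± 3.29 FPKM in NP@M (log2 fold change -3.42, adjusted p = 3.21e-06; -5.18 at read totals). Irf9, the DNA-binding part of the ISGF3 complex, averaged 0.866 ± 0.383 FPKM in NP-D@M and 6.68 ± 0.740 FPKM in NP@M. Irf8, a factor of the monocyte lineage, averaged 0.665 ± 0.199 FPKM in NP-D@M and 8.61 ± 2.03 FPKM in NP@M. B2m, the light chain of MHC class I and outside the naming rule, was the list member called higher at read totals too, with 5381 ± 1449 FPKM in NP-D@M and 354 ± 173 FPKM in NP@M (log2 fold change 4.04, adjusted p = 9.33e-06; 1.88 at read totals). It was singled out after its values were seen.

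The 19S base threads substrate through an ATPase ring. Of its 3 genes tested, Psmc3 was called higher and Psmc2 and Psmc6 lower in NP-D@M than in NP@M at the deposited scaling, while at read totals Psmc3 was at -0.51 (adjusted p = 0.236) and the other 2 were again called lower. Psmc6 (ENSMUSG00000021832, chr14:45329788-45349705), the Rpt4 ATPase, had 1.28, 1.16 and 1.02 FPKM in NP-D@MP, 0.397, 0.474 and 0.902 in NP-D@M, 4.59, 4.45 and 4.91 in NP@M, and 4.15, 4.48 and 6.40 in PBS. All 6 libraries with D were below all 6 without D, and within the libraries with D those of NP-D@MP were above those of NP-D@M. Its log2 fold change was -1.84 at the deposited scaling (SE 0.18, adjusted p = 2.88e-06) and -3.19 at read totals (SE 0.16, adjusted p = 1.24e-08). Psmc2, the Rpt1 ATPase, averaged 4.71 ± 1.75 FPKM in NP-D@M and 8.52 ± 0.611 FPKM in NP@M (SD, n = 3 each), and Psmc3, the Rpt5 ATPase, 60.8 ± 12.4 FPKM in NP-D@M and 19.9 ± 6.16 FPKM in NP@M. Subunits that share 1 ring thus moved in opposite directions at the deposited scaling.

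The other base genes were Psmd2, the scaffold Rpn1, and Psmd4, the ubiquitin receptor Rpn10. Psmd4 (ENSMUSG00000005625, chr3:95032694-95042614) had 27.2, 39.5 and 38.9 FPKM in NP-D@MP, 51.5, 32.5 and 30.9 in NP-D@M, 23.0, 12.3 and 21.1 in NP@M, and 25.1, 20.9 and 10.6 in PBS. At the deposited scaling the 6 libraries with D were all above the 6 without D, with NP@M replicate 2 and PBS replicate 3 lowest. Scaled to read totals, libraries with and without D overlapped. Its log2 fold change was 1.00 at the deposited scaling (SE 0.34, adjusted p = 0.0171), -1.09 at read totals (SE 0.37, adjusted p = 0.0221), and -0.33 under quantile normalization, and the deposited call was lost without NP-D@M replicate 1 (adjusted p = 0.0734) or NP@M replicate 2 (adjusted p = 0.07). Per length, Psmd2 had the highest mean level of the proteasome transcripts without D, and with D it came after Psmd8, Psme1 and Psme2b: it averaged 106 FPKM in NP-D@MP, 110.3 in NP-D@M, 51.1 in NP@M and 48.0 in PBS. For Psmd2 the log2 fold change was 1.12 at the deposited scaling (SE 0.21, adjusted p = 0.000401), -1.02 at read totals (SE 0.20, adjusted p = 0.000784), and -0.94 under quantile normalization.

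The lid strips ubiquitin from the substrate. Its 7 genes tested split into 3 called higher (Psmd8, Psmd13 and Psmd14) and 4 called lower (Psmd6, Psmd7, Psmd11 and Psmd12) in NP-D@M at the deposited scaling, whereas at read totals 0 were higher, 6 were lower and Psmd8 alone passed no threshold. Psmd8 (ENSMUSG00000030591, chr7:29174188-29180701), the Rpn12 subunit known in yeast to complete the lid, had 152, 213 and 191 FPKM in NP-D@MP, 241, 181 and 193 in NP-D@M, 41.0, 23.9 and 37.7 in NP@M, and 38.9, 35.2 and 19.7 in PBS. At the deposited scaling libraries with D were all above those without, the lowest of them several times the highest without D. Scaled to read totals, they overlapped. The log2 fold change of Psmd8 was 2.57 at the deposited scaling (SE 0.29, adjusted p = 9.43e-06) and 0.44 at read totals (SE 0.31, adjusted p = 0.235).

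Psmd7 (ENSMUSG00000039067, chr8:107580381-107588464), the Rpn8 partner of the deubiquitinase, had 1.57, 1.68 and 2.19 FPKM in NP-D@MP, 4.71, 1.47 and 2.59 in NP-D@M, 17.1, 14.6 and 16.5 in NP@M, and 17.5, 16.5 and 11.8 in PBS. All libraries with D were below all without D, with NP-D@M replicate 1 the highest of those with D. Its log2 fold change was -2.20 at the deposited scaling (SE 0.27, adjusted p = 1.99e-05) and -3.97 at read totals (SE 0.26, adjusted p = 1.18e-07). Psmd12 (ENSMUSG00000020720, chr11:107479484-107504362), the Rpn5 scaffold subunit, had 1.86, 2.18 and 1.20 FPKM in NP-D@MP, 3.97, 1.68 and 2.38 in NP-D@M, 8.21, 9.18 and 9.08 in NP@M, and 8.09, 9.14 and 10.6 in PBS. Here too the libraries with D were all below those without, and its log2 fold change was -1.46 at the deposited scaling (SE 0.23, adjusted p = 0.000116) and -3.20 at read totals (SE 0.21, adjusted p = 8.73e-08). Psmd14 (ENSMUSG00000026914, chr2:61711694-61800376), the deubiquitinase Rpn11, had 8.03, 8.88 and 6.40 FPKM in NP-D@MP, 14.0, 11.3 and 12.4 in NP-D@M, 8.78, 9.46 and 9.02 in NP@M, and 8.35, 8.72 and 9.31 in PBS. At the deposited scaling NP-D@M was above NP@M in every library, while NP-D@MP reached from below to within the range without D. Scaled to read totals, all libraries with D were below all without D. The log2 fold change of Psmd14 was 0.42 at the deposited scaling (SE 0.16, adjusted p = 0.0239), -1.56 at read totals (SE 0.16, adjusted p = 4.25e-06), and -0.22 under quantile normalization, and the deposited call was lost without NP-D@M replicate 1 (adjusted p = 0.0809), NP@M replicate 1 (adjusted p = 0.0657) or NP@M replicate 3 (adjusted p = 0.0594). For Psmd11, the Rpn6 subunit, leaving out NP-D@M replicate 2 ended the deposited call with a log2 fold change of -0.39 (adjusted p = 0.0617).

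The lid transcripts were also compared as shares of the summed FPKM of the 7 lid genes, which no scaling of libraries can change. Psmd8 made up 75.2% ± 1.57 in NP-D@MP, 72.9% ± 1.21 in NP-D@M, 33.5% ± 5.83 in NP@M and 30.8% ± 6.86 in PBS (SD, n = 3 each). Psmd7 made up 0.747% ± 0.150 in NP-D@MP, 0.995% ± 0.402 in NP-D@M, 15.9% ± 0.435 in NP@M and 15.2% ± 1.31 in PBS. Psmd12 made up 0.719% ± 0.218 in NP-D@MP, 0.925% ± 0.249 in NP-D@M, 8.83% ± 1.38 in NP@M and 9.52% ± 2.54 in PBS. The shares of these 3 genes with D did not overlap those without D, and neither did the shares of Psmd6, Psmd11 and Psmd14. How often such shares overlap for other genes was not counted. As levels at the deposited scaling, 46.3% of all tested genes were higher and 46.7% lower without overlap in NP-D@M against NP@M. Psmd13, the Rpn9 subunit, kept 17.6% ± 1.41 in NP-D@MP, 16.9% ± 1.52 in NP-D@M, 16.0% ± 1.28 in NP@M and 18.1% ± 1.93 in PBS, and its shares overlapped between all groups. A larger share of Psmd8 leaves less for the others, and the ratio among the others differed as well: Psmd7 exceeded Psmd14 in every library without D and was below it in every library with D.

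**Figure D4:**
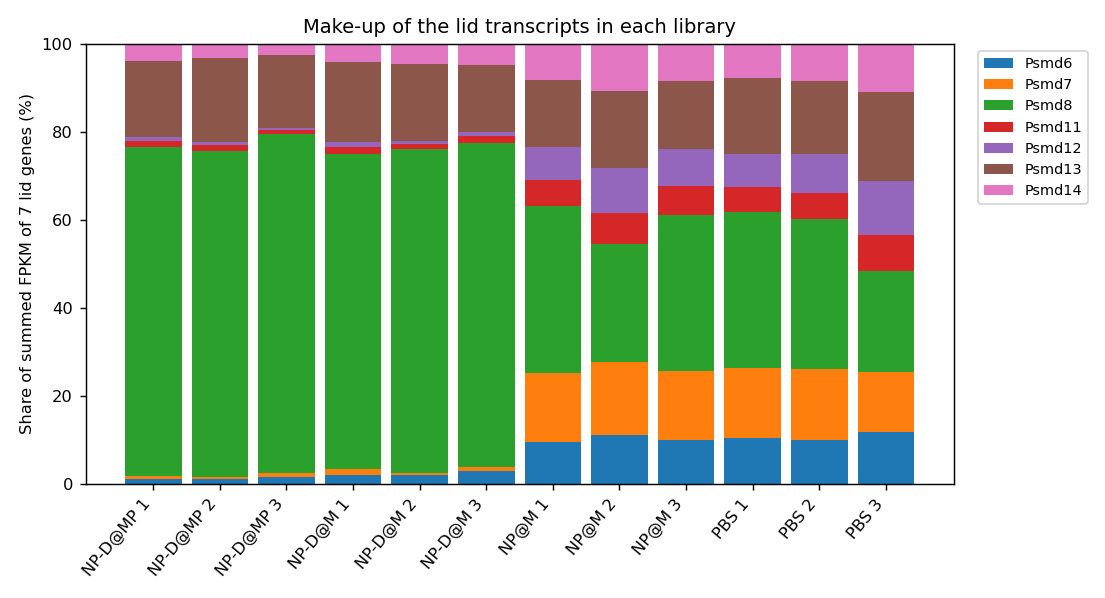
Share of the summed FPKM of the 7 lid genes tested that each gene made up (y axis, percent), 1 stacked bar per library. Psmd8 takes 71.5% to 77.0% in the 6 libraries with D and 22.95% to 37.95% in the 6 without D. The shares of Psmd6, Psmd7, Psmd11 and Psmd12 are each at most 2.83% with D and at least 5.69% without, and that of Psmd14 is also lower with D.

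PA28 is the interferon-inducible activator built of Psme1 and Psme2. Psme1 (ENSMUSG00000022216, chr14:55578123-55581529) had 138, 135 and 136 FPKM in NP-D@MP, 137, 120.0 and 104 in NP-D@M, 26.6, 15.7 and 25.9 in NP@M, and 29.2, 22.0 and 22.1 in PBS. At the deposited scaling the libraries with D were all several times above those without, and NP@M replicate 2 was the lowest of all. Scaled to read totals, libraries with and without D overlapped. Its log2 fold change was 2.38 at the deposited scaling (SE 0.22, adjusted p = 2.2e-06) and 0.26 at read totals (SE 0.24, adjusted p = 0.341). Psme1 overlaps Emc9 in the annotation.

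Psme2 (ENSMUSG00000079197, chr14:55587441-55591113) had 31.8, 103 and 96.5 FPKM in NP-D@MP, 99.95, 78.9 and 103 in NP-D@M, 24.2, 4.04 and 12.4 in NP@M, and 25.6, 17.7 and 5.84 in PBS. At the deposited scaling NP-D@MP replicate 1 was far below the other libraries with D but above every library without D. NP@M replicate 2 and PBS replicate 3 were the lowest. Scaled to read totals, libraries with and without D overlapped. Its log2 fold change was 2.98 at the deposited scaling (SE 0.65, adjusted p = 0.00119) and 0.92 at read totals (SE 0.69, adjusted p = 0.257). Psme2b (ENSMUSG00000078153, chr11:48945354-48946190), an annotated copy of Psme2 without introns in its coding part, had 119, 142 and 139 FPKM in NP-D@MP, 157, 112 and 93.7 in NP-D@M, 21.7, 21.2 and 31.0 in NP@M, and 28.7, 27.9 and 24.6 in PBS. At the deposited scaling the groups with and without D did not overlap, and NP-D@MP replicate 1 did not stand apart here. Scaled to read totals, these groups overlapped. The log2 fold change of Psme2b was 2.24 at the deposited scaling (SE 0.22, adjusted p = 3.55e-06) and 0.12 at read totals (SE 0.24, adjusted p = 0.677). Psme2b also overlaps the genes 9930111J21Rik1 and Gm12185.

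Psme2 and Psme2b are printed because the authors' counting could divide reads between them: their coding sequences, both 720 bases in the GENCODE M21 transcripts on GRCm38, differ at 5 bases and are 99.3% identical. The values of each alone are therefore uncertain. Below are coding bases 424 to 543, counted from the A of the start codon, with the 3 bases that differ in capitals. Both genes lie on the minus strand, Psme2 on chromosome 14 and Psme2b on chromosome 11.
Psme2: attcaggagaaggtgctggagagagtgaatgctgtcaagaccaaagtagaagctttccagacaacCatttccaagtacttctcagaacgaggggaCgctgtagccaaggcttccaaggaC
Psme2b: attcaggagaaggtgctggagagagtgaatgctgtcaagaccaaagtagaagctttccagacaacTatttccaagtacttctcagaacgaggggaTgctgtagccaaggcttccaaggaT

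As a share of the summed FPKM of all 38 proteasome genes, which the scaling does not touch, Psme1, Psme2 and Psme2b together made up 23.8% ± 1.23 in NP-D@MP, 22.1% ± 0.814 in NP-D@M, 10.3% ± 1.79 in NP@M and 10.7% ± 0.463 in PBS (SD, n = 3 each). Every library with D was above every library without D. The annotated lengths of Psme2 and Psme2b are 1764 and 837 bases, so this share would move if reads were given to the other copy. The alternative activator PA200, encoded by Psme4 (ENSMUSG00000040850, chr11:30771726-30880361) and known for histone turnover, had 0.805, 0.410 and 0.591 FPKM in NP-D@MP, 0.552, 0.350 and 0.390 in NP-D@M, 2.68, 8.39 and 3.40 in NP@M, and 2.73, 3.34 and 10.3 in PBS. All libraries with D were below all without D, and NP@M replicate 2 and PBS replicate 3 were the highest. Its share of the family was 0.0439% ± 0.0227 in NP-D@MP, 0.0281% ± 0.00233 in NP-D@M, 0.885% ± 0.694 in NP@M and 0.993% ± 0.967 in PBS. Psme4 reached the filter only through libraries without D, so its own difference let it in.

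Psmf1 (ENSMUSG00000032869, chr2:151715812-151744186) encodes PI31, which binds the 20S core. It had 6.45, 6.76 and 7.30 FPKM in NP-D@MP, 8.51, 6.20 and 6.40 in NP-D@M, 3.55, 3.13 and 4.33 in NP@M, and 3.88, 3.50 and 4.53 in PBS. At the deposited scaling all libraries with D were above all without. Scaled to read totals the order was the opposite, with 2.99 to 4.71 FPKM with D and 7.25 to 10.2 without. Its log2 fold change was 0.78 at the deposited scaling (SE 0.17, adjusted p = 0.00113) and -1.04 at read totals (SE 0.17, adjusted p = 0.000191).

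Assembly chaperones build the core and the base and leave the finished particle. Psmg1 (ENSMUSG00000022913, chr16:95979933-95990960), which pairs with Psmg2 to start the alpha ring, had 2.72, 2.65 and 3.03 FPKM in NP-D@MP, 2.41, 1.71 and 1.34 in NP-D@M, 6.29, 2.90 and 5.52 in NP@M, and 8.44, 6.64 and 3.22 in PBS. NP-D@M was below NP@M in every library, while NP-D@MP overlapped NP@M through NP@M replicate 2. The log2 fold change of Psmg1 was -1.03 at the deposited scaling (SE 0.31, adjusted p = 0.00838) and -2.62 at read totals (SE 0.35, adjusted p = 3.72e-05).

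Psmg3 (ENSMUSG00000029551, chr5:139823592-139826885), which pairs with Psmg4 in the same step, had 0, 0.297 and 0.264 FPKM in NP-D@MP, 0, 0 and 0 in NP-D@M, 1.21, 0.531 and 1.07 in NP@M, and 1.69, 1.21 and 0.251 in PBS. It was at 0 in all 3 NP-D@M libraries. A count of 3 reads per library, the floor for a count of 0, corresponds to a mean of 0.123 FPKM in NP-D@M. Between group means Psmg3 was thus at least 7.64-fold lower in NP-D@M than in NP@M at the deposited scaling, and at least 34.4-fold lower at read totals. The floor covers counting error only. Psmg3 reached the filter only through libraries without D, so its own difference let it in and the bound is no test of it. With Psmg3 at its bound the median over the 38 genes stayed 1.04 at the deposited scaling and -1.03 at read totals.

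The chaperones of the 19S base divided: Psmd9 and Psmd10 (gankyrin) were called higher in NP-D@M at the deposited scaling with log2 fold changes of 1.04 and 1.16, and were at -0.30 and -0.76 at read totals, where Psmd10 was called lower. Psmd5 had a log2 fold change of -0.48 at the deposited scaling (SE 0.26, adjusted p = 0.0987) and -2.17 at read totals (SE 0.26, adjusted p = 1.61e-05). Its deposited value passed the threshold without PBS replicate 3 (adjusted p = 0.0304). The 5 chaperone genes together made up 1.09% ± 0.140 in NP-D@MP, 1.36% ± 0.0683 in NP-D@M, 2.83% ± 0.225 in NP@M and 2.97% ± 0.309 in PBS of the summed FPKM of the family (SD, n = 3 each), with no overlap between libraries with and without D. Psmg3 among them reached the filter only through libraries without D, and the share was not computed without it.

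**Figure D5:**
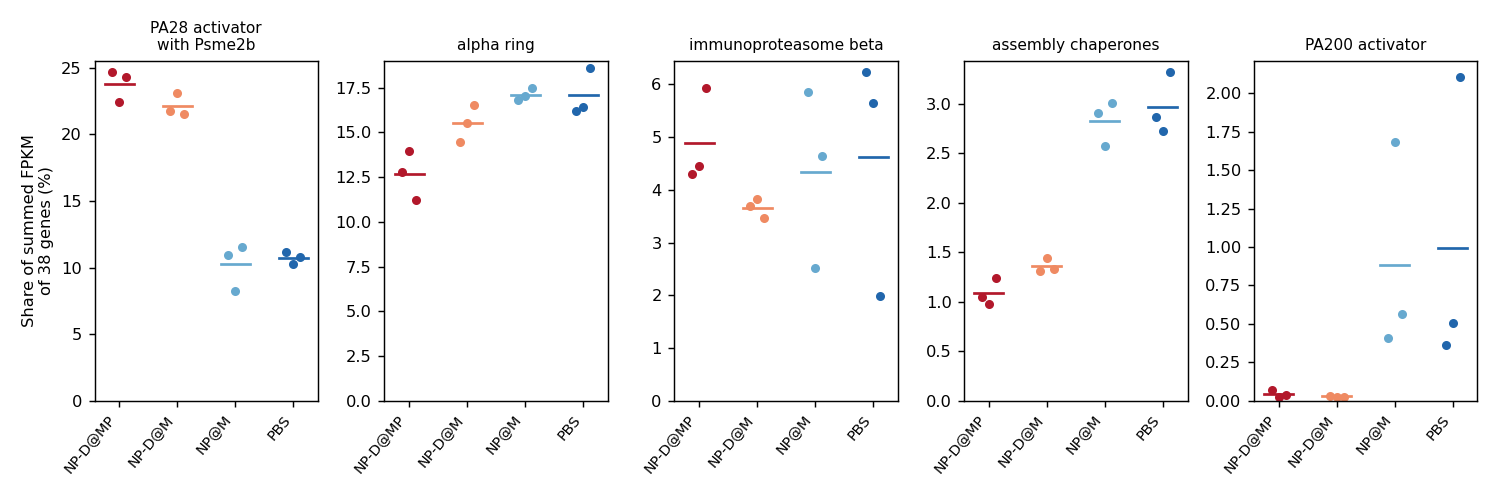
Share of the summed FPKM of 38 proteasome genes (y axes, percent, each panel with its own range starting at 0) taken by 5 groups of genes, 1 point per library and a line at the mean of 3 libraries. The PA28 share averages 23.8% and 22.1% in NP-D@MP and NP-D@M, against 10.3% and 10.7% in NP@M and PBS, and the immunoproteasome beta share overlaps between groups. The chaperone and PA200 shares are lower with D, but they hold Psmg3 and Psme4, which reached the filter only through libraries without D.

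Parts of the proteasome named outside the Psm series were counted as a separate list. Of 10 tested, 3 were called higher and 5 lower at the deposited scaling in NP-D@M against NP@M (median -0.84), beside 45.2% higher and 46% lower among all tested genes and a median of 0.16 over these. At read totals 1 was higher and 8 lower (median -2.39), beside 9.12% higher and 61.7% lower among all tested genes. Of the 10, Zfand5 reached the filter only through libraries without D. Pomp, the maturation chaperone of the beta ring, was higher under both, with 49.9 ± 1.71 FPKM in NP-D@M and 4.43 ± 1.01 FPKM in NP@M (log2 fold change 3.25, adjusted p = 2.61e-07; 1.27 at read totals). Zfand2a, a stress-induced protein that binds the cap, averaged 48.3 ± 2.80 FPKM in NP-D@M and 17.0 ± 1.30 FPKM in NP@M (log2 fold change 1.45, adjusted p = 3.8e-06; -0.64 at read totals). Akirin2, which brings proteasomes into the nucleus, was lower under both, with 0.936 ± 0.331 FPKM in NP-D@M and 17.1 ± 6.19 FPKM in NP@M (log2 fold change -3.17, adjusted p = 1.01e-05; -4.72 at read totals).

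The regulators of proteasome transcription include Nfe2l1, not analysed here, the enzymes Ddi2 and Ngly1 that process it, Nfe2l2 with its small Maf partners, and the repressors Bach1 and Keap1. All 7 tested were called lower in NP-D@M than in NP@M at the deposited scaling (median -1.93) and at read totals (median -3.65), where 46% and 61.7% of all tested genes were called lower. Of the 7, Bach1, Mafk, Ddi2 and Ngly1 reached the filter only through libraries without D, so 4 of these calls are of genes that their own difference let in. Bach1 averaged 0.105 ± 0.0946 FPKM in NP-D@M and 8.01 ± 3.10 FPKM in NP@M. Mafg averaged 4.13 ± 0.670 FPKM in NP-D@M and 17.9 ± 1.03 FPKM in NP@M (log2 fold change -1.89, adjusted p = 8.79e-06; -3.76 at read totals), and Nfe2l2, the activator of oxidative stress genes, 4.19 ± 0.624 FPKM in NP-D@M and 18.7 ± 1.28 FPKM in NP@M (log2 fold change -1.93, adjusted p = 2.01e-05; -3.81 at read totals).

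The letters TGACNNNGC, the core of the antioxidant response element that these factors bind, were searched on both strands in the 250 bases before the start of 36 RefSeq promoters (GRCm38.p6). These belong to 33 genes of the naming rule, Psmc3ip among them. Psma8, Psmb1, Psmb2, Psmb7, Psmc3 and Psmd7 had no matched promoter and were not searched. The letters were found in 5 of the 36 promoters (Psmb5, Psmb6, Psmc6, Psmd9 and Psmd12), and in 10.2% of all 32851 promoters in the table. GAAANNGAAA, the core of the interferon-stimulated response element, was in 3 (Psmb3, Psmd4 and Psmd9), against 2.98% of all promoters, and TTCNNNGAA, the gamma-activated site, in 2 (Psmb8 and Psmg1), against 7.02%. A match is a description of letters and not a bound site. These 5 stretches, with the match in capitals, are shown because genes holding the same core differed in direction at the deposited scaling: Psmb6 and Psmd9 were called higher, Psmc6 and Psmd12 lower, and Psmb5 passed no threshold. At read totals Psmc6 and Psmd12 were again called lower, while Psmb5, Psmb6 and Psmd9 were below 0 and passed no threshold. In Psmc6 and Psmd12 the match is on the opposite strand. The stretches are Psmb5 at chr14:54618023-54618122 (minus strand), Psmb6 at chr11:70525257-70525356, Psmc6 at chr14:45329597-45329696, Psmd9 at chr5:123228090-123228189 and Psmd12 at chr11:107479281-107479380 (plus strand), each written 5′ to 3′ on the strand of the gene.
Psmb5: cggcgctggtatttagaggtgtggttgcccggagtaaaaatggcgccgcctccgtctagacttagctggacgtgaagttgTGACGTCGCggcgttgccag
Psmb6: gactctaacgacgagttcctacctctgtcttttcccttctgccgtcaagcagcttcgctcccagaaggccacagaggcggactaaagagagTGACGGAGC
Psmc6: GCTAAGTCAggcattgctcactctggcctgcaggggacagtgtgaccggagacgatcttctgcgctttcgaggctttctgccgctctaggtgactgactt
Psmd9: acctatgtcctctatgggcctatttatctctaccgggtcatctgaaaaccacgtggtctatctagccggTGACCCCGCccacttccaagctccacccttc
Psmd12: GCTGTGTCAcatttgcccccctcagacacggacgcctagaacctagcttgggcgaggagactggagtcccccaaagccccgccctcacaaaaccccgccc

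Genes of ubiquitin and ubiquitin-like proteins, and of delivery to the proteasome, were counted in 2 lists. Of 9 tested genes for ubiquitin, ubiquitin-like proteins and their activating enzymes, 5 were called higher and 4 lower at the deposited scaling (median 1.16) in NP-D@M against NP@M, beside 45.2% higher and 46% lower among all tested genes. At read totals 1 was higher and 6 lower (median -0.92), beside 9.12% higher and 61.7% lower among all tested genes. Uba6 reached the filter only through libraries without D. Uba2, of the SUMO-activating enzyme, averaged 1.79 ± 0.128 FPKM in NP-D@M and 6.61 ± 0.624 FPKM in NP@M (log2 fold change -1.45, adjusted p = 8.39e-06; -3.09 at read totals). Uba1, the main ubiquitin-activating enzyme, averaged 132 ± 1.37 FPKM in NP-D@M and 53.1 ± 1.45 FPKM in NP@M (log2 fold change 1.30, adjusted p = 1.78e-05; -0.84 at read totals). Sae1, the partner of Uba2, averaged 37.3 ± 2.90 FPKM in NP-D@M and 16.1 ± 1.81 FPKM in NP@M (log2 fold change 1.16, adjusted p = 3.35e-05; -0.92 at read totals). Of 11 tested genes for the p97 unfoldase, its cofactors and the shuttles that carry ubiquitinated proteins, 2 were higher and 7 lower at the deposited scaling (median -1.49), beside 45.2% higher and 46% lower among all tested genes. At read totals 0 were higher and 9 lower (median -2.83), beside 9.12% higher and 61.7% lower among all tested genes. Faf2, Ddi2 and Nsfl1c reached the filter only through libraries without D. The shuttle Ubqln2 averaged 1.21 ± 0.240 FPKM in NP-D@M and 6.19 ± 0.967 FPKM in NP@M (log2 fold change -1.70, adjusted p = 3.32e-06; -3.24 at read totals). The cofactor Faf2 averaged 0.733 ± 0.0591 FPKM in NP-D@M and 5.35 ± 0.992 FPKM in NP@M, and the cofactor Ubxn4 1.04 ± 0.545 FPKM in NP-D@M and 5.98 ± 0.752 FPKM in NP@M (log2 fold change -1.80, adjusted p = 1.08e-05; -3.30 at read totals).

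NP-D@MP against NP-D@M compares the particles with D whose names differ by P. No proteasome gene passed the threshold: limma called 0 of 38 in either direction, as it called 0% of all 8615 tested genes higher and 0% lower. An unadjusted p under 0.05 was seen for 5 proteasome genes and for 428 of all tested genes. The median log2 fold change of the 38 was -0.094 (range -0.87 to 0.45), against 0.031 over all tested genes. Groups did not overlap for 2 genes above (Psmc6 and Psmg1) and 4 below (Psmd5, Psmd6, Psmd10 and Psmd14), where 8.58% and 6.14% of all tested genes did not overlap. Psmd6, the Rpn7 lid subunit, had the smallest adjusted p, with 2.25, 2.89 and 3.86 FPKM in NP-D@MP and 6.90, 4.69 and 7.41 FPKM in NP-D@M. Its log2 fold change was -0.87 at the deposited scaling (SE 0.19, adjusted p = 0.216) and -0.81 at read totals. For Psmd14 it was -0.63 at the deposited scaling (SE 0.16, adjusted p = 0.328) and -0.66 at read totals. Psmb8 stood at 0.30 at the deposited scaling (SE 0.52, adjusted p = 1) and 0.20 at read totals, and Psmb10 at 0.38 at the deposited scaling (SE 0.52, adjusted p = 1) and 0.27 at read totals. Psme1 stood at 0.19 at the deposited scaling (SE 0.22, adjusted p = 1) and 0.093 at read totals. A value that misses the threshold does not show that these groups are alike.

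NP@M against PBS asks what the particle without D does. Limma called 0 of 38 proteasome genes higher and 0 lower, with 0.0116% of all tested genes called higher and 0% lower. An unadjusted p under 0.05 was seen for 0 proteasome genes and 27 of all tested genes. Log2 fold changes of the 38 lay between -0.33 (Psme2) and 0.15 (Psmd8), with a median of -0.066. Groups did not overlap for Psmd13, the Rpn9 lid subunit, which averaged 16.1 ± 0.486 FPKM in NP@M and 17.8 ± 1.16 FPKM in PBS (SD, n = 3 each). All other proteasome genes overlapped, where 1.74% and 1.14% of all tested genes were above or below without overlap. Each of these groups holds 1 of the libraries that stood apart.

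NP-D@MP against PBS sets the particle with D and P in its name against PBS alone. At the deposited scaling 21 of 38 were called higher and 10 lower in NP-D@MP, with 45.7% of all tested genes called higher and 45.8% lower, and the median of the 38 was 0.95 (all tested genes 0.13). At read totals 0 were higher and 26 lower (9.01% and 62.4% of all tested genes), with a median of -1.17 (all tested genes -1.48), and all 26 with an unadjusted p under 0.05 were lower. Without overlap at the deposited scaling were 19 genes above and 9 below, against 44.7% and 44.7% of all tested genes, and at read totals 0 above and 25 below, against 10.6% and 62.8%. Without Psma8, Psme4 and Psmg3, 20 of 35 were called higher and 8 lower at the deposited scaling, and 0 and 24 at read totals. Also without them, 18 genes lay above and 8 below without overlap at the deposited scaling, and 0 and 23 at read totals. The next counts under equal medians and quantile normalization include these genes. With library medians set equal 27 were higher and 8 lower (49% and 39.7% of all tested genes), under quantile normalization 3 and 11 (34.6% and 33.7%), and with a filter of 5 FPKM in 3 libraries 19 and 6 of 32 (63% and 30.5%). This comparison shares no library with NP-D@M against NP@M, but both take their spread from the fit over all 12 libraries, so their calls are not independent.

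The genes that moved farthest were again of the lid and the activators. Psmd8 had a log2 fold change of 2.57 at the deposited scaling (SE 0.29, adjusted p = 9.47e-06) and 0.37 at read totals (SE 0.31, adjusted p = 0.312). Psme1 was at 2.45 at the deposited scaling (SE 0.22, adjusted p = 1.78e-06) and 0.25 at read totals (SE 0.24, adjusted p = 0.352) and Psme2b at 2.26 at the deposited scaling (SE 0.22, adjusted p = 3.37e-06) and 0.062 at read totals (SE 0.24, adjusted p = 0.827). Psme2 was at 2.21 at the deposited scaling (SE 0.65, adjusted p = 0.00738) and 0.059 at read totals (SE 0.69, adjusted p = 0.942). These 4 were above 0 under all 4 scalings, though called higher under 2 of the 4. Among the genes called lower, Psmd7 was at -2.52 at the deposited scaling (SE 0.27, adjusted p = 7.21e-06) and -4.24 at read totals (SE 0.26, adjusted p = 7.33e-08). Psmd12 was at -1.91 at the deposited scaling (SE 0.23, adjusted p = 1.5e-05) and -3.59 at read totals (SE 0.21, adjusted p = 3.71e-08). Psmd6 of the lid was at -1.55 at the deposited scaling (SE 0.19, adjusted p = 1.98e-05) and -3.37 at read totals (SE 0.19, adjusted p = 2.7e-08). Psmc6 of the ATPase ring was at -1.47 at the deposited scaling (SE 0.18, adjusted p = 1.59e-05) and -2.98 at read totals (SE 0.16, adjusted p = 1.97e-08). Psme4 was also among the genes called lower, but is given without a test of its own. Called lower under all 4 scalings were Psmc2, Psmc6, Psmd6, Psmd7, Psmd11 and Psmd12. Under single scalings 33.7% to 62.4% of all tested genes were called lower, and the share called lower under all 4 was not counted.

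The cutting subunits were less certain in NP-D@MP against PBS. Psmb5 had a log2 fold change of 1.07 at the deposited scaling (SE 0.56, adjusted p = 0.087), -1.10 at read totals (SE 0.60, adjusted p = 0.125), and -0.57 under quantile normalization, and its deposited value passed the threshold without PBS replicate 1 (adjusted p = 0.032) or PBS replicate 2 (adjusted p = 0.0442). Psmb6 was at 1.15 at the deposited scaling (SE 0.45, adjusted p = 0.0306), -1.04 at read totals (SE 0.49, adjusted p = 0.078), and -0.63 under quantile normalization, and its deposited call ended without NP-D@MP replicate 2 (adjusted p = 0.102), NP-D@MP replicate 3 (adjusted p = 0.0825) or PBS replicate 3 (log2 fold change 0.60 (adjusted p = 0.119)), and without both libraries that stood apart (adjusted p = 0.0938). Psmb7 was at 0.33 at the deposited scaling (SE 0.24, adjusted p = 0.19), -1.69 at read totals (SE 0.23, adjusted p = 4.18e-05), and -0.22 under quantile normalization, and passed the threshold at the deposited scaling without NP-D@MP replicate 1 (adjusted p = 0.027). Under equal medians Psmb5 was at 1.56 (adjusted p = 0.0167), Psmb6 at 1.65 (adjusted p = 0.00365) and Psmb7 at 0.79 (adjusted p = 0.00567).

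Of the inducible subunits, Psmb10 was called higher in NP-D@MP than in PBS at the deposited scaling, with a log2 fold change of 1.59 at the deposited scaling (SE 0.52, adjusted p = 0.0134) and -0.53 at read totals (SE 0.57, adjusted p = 0.425), and without PBS replicate 3 its log2 fold change was 0.91 (adjusted p = 0.0351). Without both libraries that stood apart it was 0.91 (adjusted p = 0.00791). Psmb8 was at 1.14 at the deposited scaling (SE 0.52, adjusted p = 0.0545) and -0.99 at read totals (SE 0.57, adjusted p = 0.145), and its deposited adjusted p was 0.0426 when NP@M replicate 1 was left out, 0.0303 when NP@M replicate 2 was, and 0.0194 when PBS replicate 1 was. The regulator Psmf1 was at 0.66 at the deposited scaling (SE 0.17, adjusted p = 0.00321) and -1.22 at read totals (SE 0.17, adjusted p = 5.23e-05).

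In the base and lid, Psmd4 was at 0.93 at the deposited scaling (SE 0.34, adjusted p = 0.0237), -1.22 at read totals (SE 0.37, adjusted p = 0.0124), and -0.36 under quantile normalization, and its deposited call ended without NP-D@MP replicate 2 (adjusted p = 0.0712), NP-D@MP replicate 3 (adjusted p = 0.0678) or PBS replicate 3 (log2 fold change 0.58 (adjusted p = 0.0921)). Without both libraries that stood apart Psmd4 was called, at 0.58 (adjusted p = 0.0409). Psmd14 was at -0.17 at the deposited scaling (SE 0.16, adjusted p = 0.312), -2.15 at read totals (SE 0.16, adjusted p = 2.91e-07), and 0.28 under equal medians. The chaperone Psmg1 was at -0.83 at the deposited scaling (SE 0.31, adjusted p = 0.025) and -2.57 at read totals (SE 0.35, adjusted p = 4.26e-05), and its deposited call ended without NP-D@MP replicate 1 or 2 (adjusted p = 0.0555 and 0.0613) and without PBS replicate 1 or 2 (adjusted p = 0.105 and 0.0752).

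As a whole, the summed FPKM of the 38 genes was 1466 ± 269.8 in NP-D@MP, 1517 ± 251 in NP-D@M, 586 ± 81.3 in NP@M and 630.2 ± 131 in PBS at the deposited scaling (SD, n = 3 each), higher in every library with D than in any without. As a share of reads the order was the opposite: the 38 genes took 0.145, 0.197 and 0.171% of the reads of the table in NP-D@MP, 0.241, 0.160 and 0.182% in NP-D@M, 0.383, 0.325 and 0.353% in NP@M, and 0.421, 0.377 and 0.308% in PBS. The share of reads was lower in every library with D than in any without D. These are shares of the reads in the table and not of whole libraries.

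Genomic spans of the 26 genes called higher in NP-D@M against NP@M had a median of 11638 bases (837 to 88683), and those of the 9 called lower a median of 18505 bases (3294 to 108636). The ends of the latter range are Psmg3 and Psme4, which their own difference let in, as it did Psma8 among the 26. Across the 38 genes Spearman's rho between span and log2 fold change was -0.32, and across all tested genes it was -0.32. At read totals rho was -0.23 for the 38 and -0.35 for all. Neither the medians nor rho were computed without Psma8, Psme4 and Psmg3. Genes share the same 6 libraries here and are not independent replicates.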

How the data were processed

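The deposited values are FPKM for 11669 genes in 12 libraries, in 1 table made by the authors. The header names no unit. FPKM was inferred because multiplying by gene length and dividing by a constant of each library turns 100% of values into whole reads (tolerance 0.05), whose sums are the read totals. The method behind the authors' scaling is not given in the sources used here. Bowtie 0.12.2 and mm8 appear in the submitters' processing notes with no role stated. Identifiers of all 39 genes matched GENCODE M21 and 38 had equal coordinates, and GRCm38 is used for positions. The selection of genes for the table is unknown, so shares of genes called hold within it. Of the 39, 19 overlap another annotated gene.

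Genes at 1 FPKM or more in at least 3 libraries (8615) were tested on log2(FPKM + 1), which understates fold changes of low genes, with limma 3.58.1 in R 4.3.3 (4 group means over all 12 libraries, trend and robust options), 2-sided, with Benjamini-Hochberg adjustment over all tested genes of a comparison and a threshold of 0.05. The same fit was run on simulated counts before use. These took the NP@M profile for all groups, changed a small set of genes in NP-D@M and were scaled to their own read totals. They therefore do not show how the fit does under the authors' scaling. Within-library ratios were compared by exact permutation tests. Labels do not say whether cultures were separate, so p-values reflect the spread among these libraries, which may be technical. Alternatives were read totals, equal medians, quantile normalization, a pseudocount of 0.1, limma without its trend option, no filter, a filter of 5 FPKM, leaving out each library, and, chosen after seeing the data, leaving out both libraries that stood apart. Named with values in every library are the cutting subunits, activators, Psmf1, Psmd4, Psmd14, the Psmg genes and the 3 genes called with the largest rise and fall of each comparison; of other lists, up to 3 genes with the smallest adjusted p. The genes and lists were chosen with earlier results of these data known. Python 3.11.15 (pandas 2.3.3, numpy 2.4.6, scipy 1.17.1, matplotlib 3.10.9) made the tables and plots.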

Additional observations from a re-analysis of the deposited data

How the results depend on the processing

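The scaling of libraries decided most counts, and the libraries' true sizes are not known from the table. In NP-D@M against NP@M, genes called higher were 26 as deposited, 0 at read totals and 6 under quantile normalization, and genes called lower were 9, with 24 at read totals and 5 under equal medians. In NP-D@MP against PBS, genes called higher were 21, with 0 at read totals and 3 under quantile normalization, and genes called lower were 10, with 26 at read totals and 6 with a filter of 5, which tests 32 of the 38. Log2 fold changes that reversed in NP-D@M against NP@M were, at read totals, Psma1 -0.88, Psma2 -0.70, Psma3 -0.42, Psma4 -1.29, Psma6 -1.21, Psma7 -0.51, Psmb1 -0.79, Psmb2 -1.09, Psmb3 -0.47, Psmb4 -1.36, Psmb5 -1.26, Psmb6 -0.77, Psmb7 -1.37, Psmb8 -0.87, Psmb10 -0.95, Psmc3 -0.51, Psmd2 -1.02, Psmd4 -1.09, Psmd13 -0.59, Psmd14 -1.56, Psmd9 -0.30, Psmd10 -0.76 and Psmf1 -1.04, and, under quantile normalization, Psma1 -0.077, Psma4 -0.27, Psma6 -0.91, Psmb2 -0.77, Psmb4 -0.99, Psmb5 -0.87, Psmb6 -0.37, Psmd2 -0.94, Psmd4 -0.33 and Psmd14 -0.22. In NP-D@MP against PBS those of the named genes were, at read totals, Psmb5 -1.10, Psmb6 -1.04, Psmb7 -1.69, Psmb8 -0.99, Psmb10 -0.53, Psmf1 -1.22 and Psmd4 -1.22, under quantile normalization Psmb5 -0.57, Psmb6 -0.63, Psmb7 -0.22 and Psmd4 -0.36, and under equal medians Psmd14 0.28. Leaving out 1 library at a time gave 19 to 28 higher and 8 to 10 lower in NP-D@M against NP@M, 18 to 24 and 8 to 10 in NP-D@MP against PBS, and 0 in both other comparisons. Of the 26 and 9 genes called in NP-D@M against NP@M, 19 and 8 were called in each of these fits, Psma8, Psme4 and Psmg3 among them. The share of all tested genes called in these fits was not counted, so these counts have no background beside them. Without NP-D@M replicate 1, for example, 7596 of 8547 tested genes had an unadjusted limma p under 0.05 in NP-D@M against NP@M. The difference in the Psmb8 to Psmb5 ratio ranged over 0.062 to 0.36, and that of Psmb10 to Psmb7 over 0.58 to 1.07, with 0.30 without both libraries that stood apart. Without those 2 libraries 27 genes were higher and 9 lower in NP-D@M against NP@M, and 20 and 10 in NP-D@MP against PBS. The share of all tested genes called there was not counted either. Of 8427 tested, 7845 had an unadjusted limma p under 0.05 in the former comparison and 7852 in the latter. Limma without trend and a pseudocount of 0.1 left all counts of calls within 1.5 times. No paired analysis was possible because the labels number the 12 libraries through and the groups share no replicate number. The ratio of Psmb9 to Psmb6 was not run, since Psmb9 is not analysed here. With 3 libraries per group, low genes such as Psmg3 rest on few reads. The cause of these changes was not tested.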
